A study of Drosophila melanogaster with 12 samples.

Results

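The genes described here encode structural proteins of the fly's cuticle and proteins that bind chitin. They were chosen by name, from probe sets that the array annotation ties to exactly 1 gene. A gene was taken where its symbol began with Cpr and a digit, or with Lcp, Ccp84, Acp65A, Twdl, Vajk, Cpap, obst- or Peritrophin, and where a gene had several probe sets the one with the highest mean signal stood for it. This gave 116 genes of the 11982 that such probe sets name in the whole series. Of these, 66 were Cpr genes, 24 Tweedle (Twdl), 8 obstructor (obst), 7 Lcp, 4 Vajk, 3 Ccp84, 3 Peritrophin and 1 Acp65A, and 0 were Cpap genes. A further 20 genes with such symbols in the annotation of genome release 6 had no probe set of their own and were not members.

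Whole heads of Drosophila melanogaster were measured on 12 Affymetrix arrays, in 4 groups of 3. The wild type, CS, was untreated in CS_0 and received lithium at 50 mM in CS_50. The mutant, Shu, was likewise untreated in Shu_0 and treated at 50 mM in Shu_50, and the labels of all 12 arrays also name acclimatization. For Shu_50 they give the dose but not the drug, and only the series title, which speaks of lithium, supplies it. The annotation gives Shu, Shudderer in full, as a name of para, which encodes the voltage-gated sodium channel. Whether the CS and Shu stocks share a genetic background is not given, so the mutation and the stock cannot be told apart in any comparison of genotypes. Sex, age, treatment length and the origin of the replicates are not given either, and p-values may therefore measure technical spread alone. In RNA from a whole head, fewer cells of a type and less RNA per cell cannot be told apart.

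Insect cuticle is a composite of chitin fibres and proteins that epidermal cells secrete. Most cuticle proteins of the Cpr, Lcp, Ccp84 and Acp65A groups carry the Rebers-Riddiford consensus, a stretch that binds chitin, while the obstructor and Peritrophin proteins bind it through domains of the peritrophin type. Tweedle proteins form a separate cuticle family, first known from short and stout mutant larvae, and the Vajk genes encode cuticle proteins, Vajk1 to Vajk3 from within the Nimrod gene cluster. In a head such proteins are laid down in the exoskeleton, in the mouthparts and foregut, in the lining of the tracheae and in the corneal lens over each facet of the eye, and much of this matrix is made before and shortly after the adult emerges.

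Of the 116 genes, 61 were bright enough to be tested, which means that their mean on the log2 scale lay at or above that of the lowest 40% of probe sets, a signal of 11.5. These were 41 of the 66 Cpr genes, 6 of the 24 Tweedle genes, 4 of the 8 obstructor genes, 2 of the 7 Lcp genes, all 4 Vajk genes, 1 of the 3 Ccp84 genes, 2 of the 3 Peritrophin genes and Acp65Aa. The other 55 had mean signals from 0.834 to 12.69, no single array of theirs passed 26.57, and they are not described further. Just outside the filter lay Cpr66D, TwdlW and Cpr62Ba (mean signals 11.58, 11.29 and 12.69), and just inside it Cpr11A, Cpr49Aa and Cpr49Ah (12.18, 11.75 and 12.53). Precision differed with brightness. The median coefficient of variation within a group was 6.09% over the 21 genes with a mean signal over 100 and 29.4% over the 26 tested genes with one under 30, so only large differences could be seen in the latter.

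Values are deposited intensities, referred to as signal, and all differences are on the scale of log2(signal + 6.26). A gene was called where limma's test gave p under 0.05 after Benjamini-Hochberg adjustment over the 11261 probe sets tested, and ± gives limma's SE with 3 arrays per group. That SE pools the spread of all 4 groups, so comparisons that share no array still share it. Over the 4 comparisons, 10 of the 61 genes were called in at least 1, with 18 calls in all, and 51 were called in none. For all probe sets the share called was counted only within each comparison, where it ran from 0.506% to 5.07%. Array medians lay between 24.4 and 26.3 and replicates correlated at 0.985 to 0.989. The first principal component over all tested probe sets carried 18.1% of the variance and had CS_0 replicate 3 (20.5) and Shu_0 replicate 1 (-17.9) at its ends, and values without both are given where they end a call. Retinin, a defining protein of the corneal lens, was bright in every array (7522 to 11310).

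**Figure D1:**
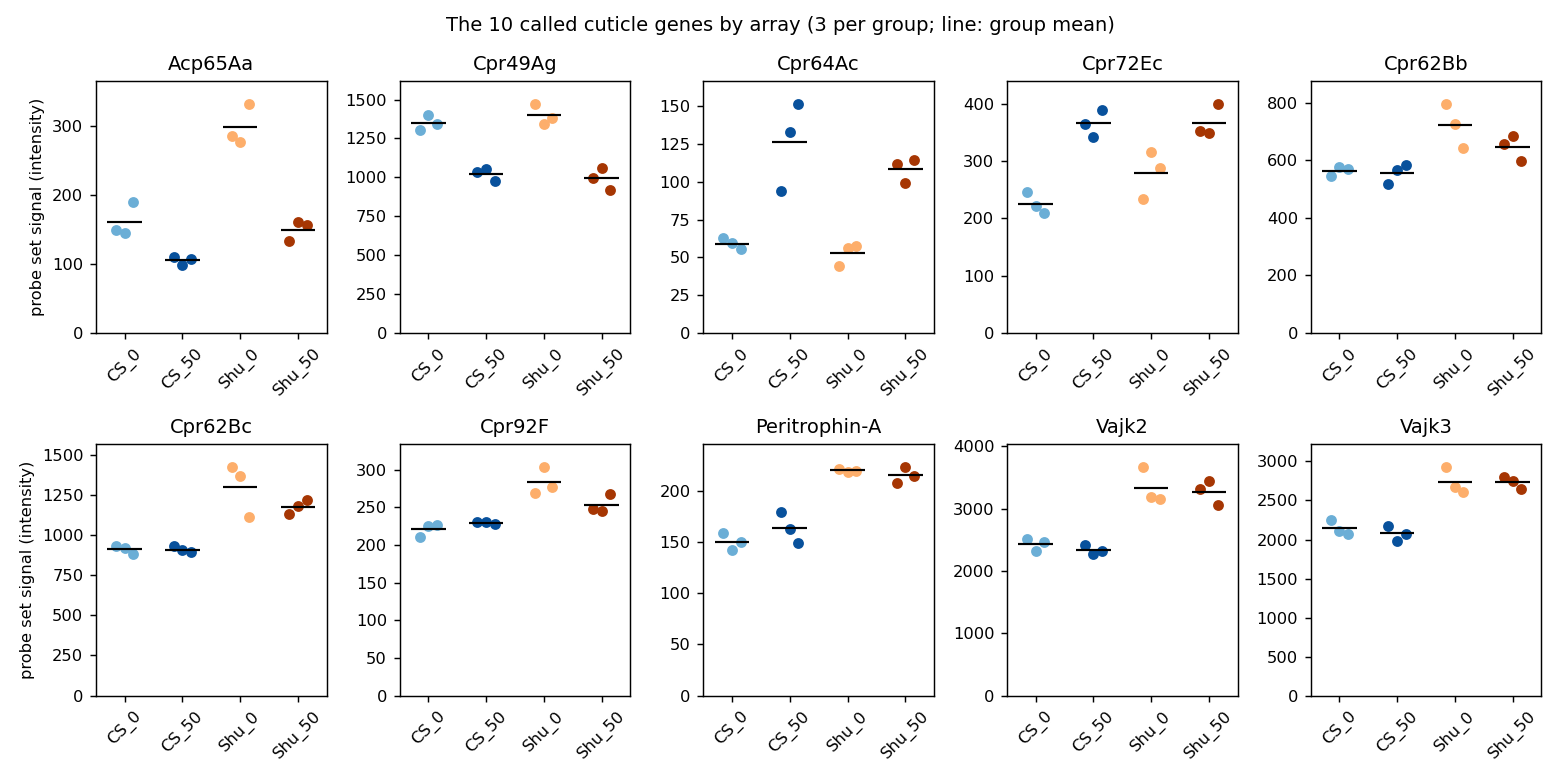
Signal (deposited intensity, linear axis from 0, a separate scale for each gene) of the 10 called cuticle genes on each of the 12 arrays. Points are arrays in replicate order and lines are group means; Acp65Aa shows 4 levels of which CS_0 and Shu_50 overlap, Cpr49Ag and Cpr64Ac separate by lithium, and Vajk2, Vajk3, Cpr62Bc and Peritrophin-A by genotype.

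The arrays CS_50 against CS_0 asked which cuticle genes moved with the drug in heads without the mutation. It raised 2 genes, Cpr64Ac and Cpr72Ec, and lowered 2, Cpr49Ag and Acp65Aa. That is 4 of 61 tested genes, or 6.56%, where 1.62% of all probe sets tested were called. The median difference of the 61 genes was -0.02, against 0.00 for all probe sets, and 25 of the 61 lay above 0, beside 50.9% of all probe sets. Without CS_0 replicate 3 the median was 0.00 and 32 lay above 0. At an unadjusted p under 0.05 there were 9 of the 61, beside 13.1% of all probe sets.

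Cpr64Ac (probe set 1625570_at, 3L:4211964-4212915), a cuticle protein with the Rebers-Riddiford consensus, gave signals of 62.8, 59.2 and 55.5 in CS_0 and of 94.3, 133 and 152 in CS_50. Every lithium array was above every untreated one, although the lithium arrays themselves were widely spread (SD 29.4 around 126, against 3.68 around 59.2). The rise was 1.00 ± 0.15 (adjusted p = 0.00158), or 99.5%. In the mutant the gene behaved likewise, with 44.3, 56.2 and 57.7 in Shu_0 and 112, 99.4 and 114 in Shu_50. There it rose by 0.97 ± 0.15 (adjusted p = 0.00131), or 95.5%. Both calls were kept under each of the 23 alternatives run. Between genotypes the gene gave -0.16 ± 0.15 untreated and -0.19 ± 0.15 on lithium, and neither was called.

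Cpr72Ec (1626740_at, 3L:16365894-16367340) is known as a protein of the corneal lens. Its signals were 246, 221 and 209 in CS_0 and 366, 342 and 389 in CS_50, again with no overlap, and it rose by 0.69 ± 0.10 (adjusted p = 0.00126), or 60.8%. In the mutant the 3 untreated arrays read 233, 316 and 288 and the 3 at 50 mM read 352, 349 and 400. These did not overlap either, though the untreated mutant arrays were more spread (SD 42.2). With the same pooled SE, the smaller difference of 0.40 ± 0.10 missed the threshold (adjusted p = 0.0526). It passed with the filter at the 60th percentile (0.0427), with array weights (0.0445), without CS_0 replicate 3 (0.05) and without Shu_0 replicate 2 (0.018). The difference between the lithium effects of the genotypes was -0.29 and was not called.

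Retinin, another lens protein and not a member, moved the opposite way in the wild type. Its 3 arrays read 9961, 9459 and 10110 in CS_0 and 7947, 7522 and 7863 in CS_50, a fall of 0.34 ± 0.08 (adjusted p = 0.0317). In the mutant its difference was -0.16 ± 0.08 and was not called (adjusted p = 0.414). In the wild type the 2 lens genes thus changed in opposite directions.

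Acp65Aa (1639418_at, 3L:6152050-6152745), an adult cuticle protein expressed around emergence, was the 1 member called both with lithium and between genotypes. The signals were 149, 145 and 190 in CS_0, 110, 98.6 and 107 in CS_50, 286, 276 and 332 in Shu_0 and 133, 160 and 156 in Shu_50. In each genotype the lithium arrays lay below all untreated ones, and within each treatment the mutant arrays lay above all wild-type ones. The arrays of the treated mutant (mean 149.7 ± 14.8 SD, n = 3) and of the untreated wild type (161 ± 24.8 SD, n = 3) overlapped. Lithium lowered it by 0.58 ± 0.11 in the wild type (adjusted p = 0.0103, a fall of 32.9%) and by 0.96 ± 0.11 in the mutant (adjusted p = 7.01e-05, a fall of 48.7%). The call in the mutant was kept under all 23 alternatives. The wild-type call disappeared without CS_0 replicate 3, its highest untreated array (adjusted p = 0.0554), without CS_50 replicate 2 (0.0664), without CS_0 replicate 3 and Shu_0 replicate 1 together (0.0689) and without the intensity trend (0.0787).

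Cpr49Ag (1629747_at, 2R:12407793-12408523), which carries the Rebers-Riddiford consensus, fell with lithium in both genotypes. Its signals were 1304, 1398 and 1346 in CS_0 and 1032, 1052 and 977 in CS_50, and 1472, 1345 and 1382 in Shu_0 and 998, 1062 and 918 in Shu_50. No lithium array of either genotype reached any untreated one. The falls were 0.40 ± 0.06 in the wild type (adjusted p = 0.00213, or 24.3%) and 0.49 ± 0.06 in the mutant (adjusted p = 0.000237, or 29.0%). The first was lost without the intensity trend alone (adjusted p = 0.0514) and the second under no alternative. Between genotypes it differed by 0.05 ± 0.06 untreated and by -0.04 ± 0.06 on lithium.

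The arrays Shu_50 against Shu_0 asked the same question in the other genotype. Their group means came from arrays that the first comparison did not use, but the SEs were shared. This comparison called 3 of the 61 genes (4.92%, against 1.86% of all probe sets), the rise of Cpr64Ac and the falls of Acp65Aa and Cpr49Ag given above. The median of the 61 was -0.03 against -0.01 for all (-0.06 to -0.01 with 1 array left out at a time), 25 were above 0 (beside 46.8% of all), and 11 had an unadjusted p under 0.05 beside 11.9% of all probe sets. Since the lithium comparisons share no array, their overlap can be counted. In 2 of the 61 genes, Cpr64Ac and Cpr72Ec, all lithium arrays lay above all untreated ones in both genotypes, which is 3.28% where 2.32% of all probe sets did so. In 3, Acp65Aa, Cpr49Ag and Cpr47Ef, all lay below in both, which is 4.92% where 1.77% of all probe sets did so.

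Cpr47Ef (1636853_at, 2R:11266915-11272575), a Cpr gene, was not called in either. Its signals were 78.6, 65.5 and 73.1 in CS_0, 51.2, 58.7 and 57.1 in CS_50, 88.8, 80.1 and 79.8 in Shu_0 and 51.3, 46.1 and 69.4 in Shu_50. The differences were -0.34 ± 0.14 (adjusted p = 0.286) and -0.54 ± 0.14 (adjusted p = 0.0554). The latter passed with the filter at the 60th percentile (0.041) and without Shu_50 replicate 3 (0.0127), the array with the highest of the 3 lithium values. Its neighbour Cpr47Ee (1631631_at, 2R:11265126-11266856) gave -0.33 ± 0.10 in the wild type (adjusted p = 0.147) and -0.20 ± 0.10 in the mutant.

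Whether lithium acted differently in the genotypes was tested as an interaction. Of the 61 genes limma called 0, and 3 had an unadjusted p under 0.05, beside 6.73% of all probe sets, of which 1 (0.00888%) was called. Acp65Aa had the lowest p among the 61. Its fall was 0.39 ± 0.15 larger in the mutant, with an adjusted p of 0.713. Cpr65Aw, a dim gene (1628713_at, 3L:6141903-6142413), gave -0.96 and Cpr30F (1626922_at, 2L:9932272-9933163), also dim, gave 1.08. In Cpr65Aw the 3 arrays of Shu_50 read 5.01, 3.91 and 13.4 against 17.8, 26.4 and 19.0 in Shu_0, and the lithium difference of -1.05 ± 0.29 in the mutant was not called (adjusted p = 0.0932). In Cpr30F 2 arrays of Shu_0 read 4.41 and 5.46 while the third read 33.6, a spread wider than the gap between any 2 group means.

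**Figure D2:**
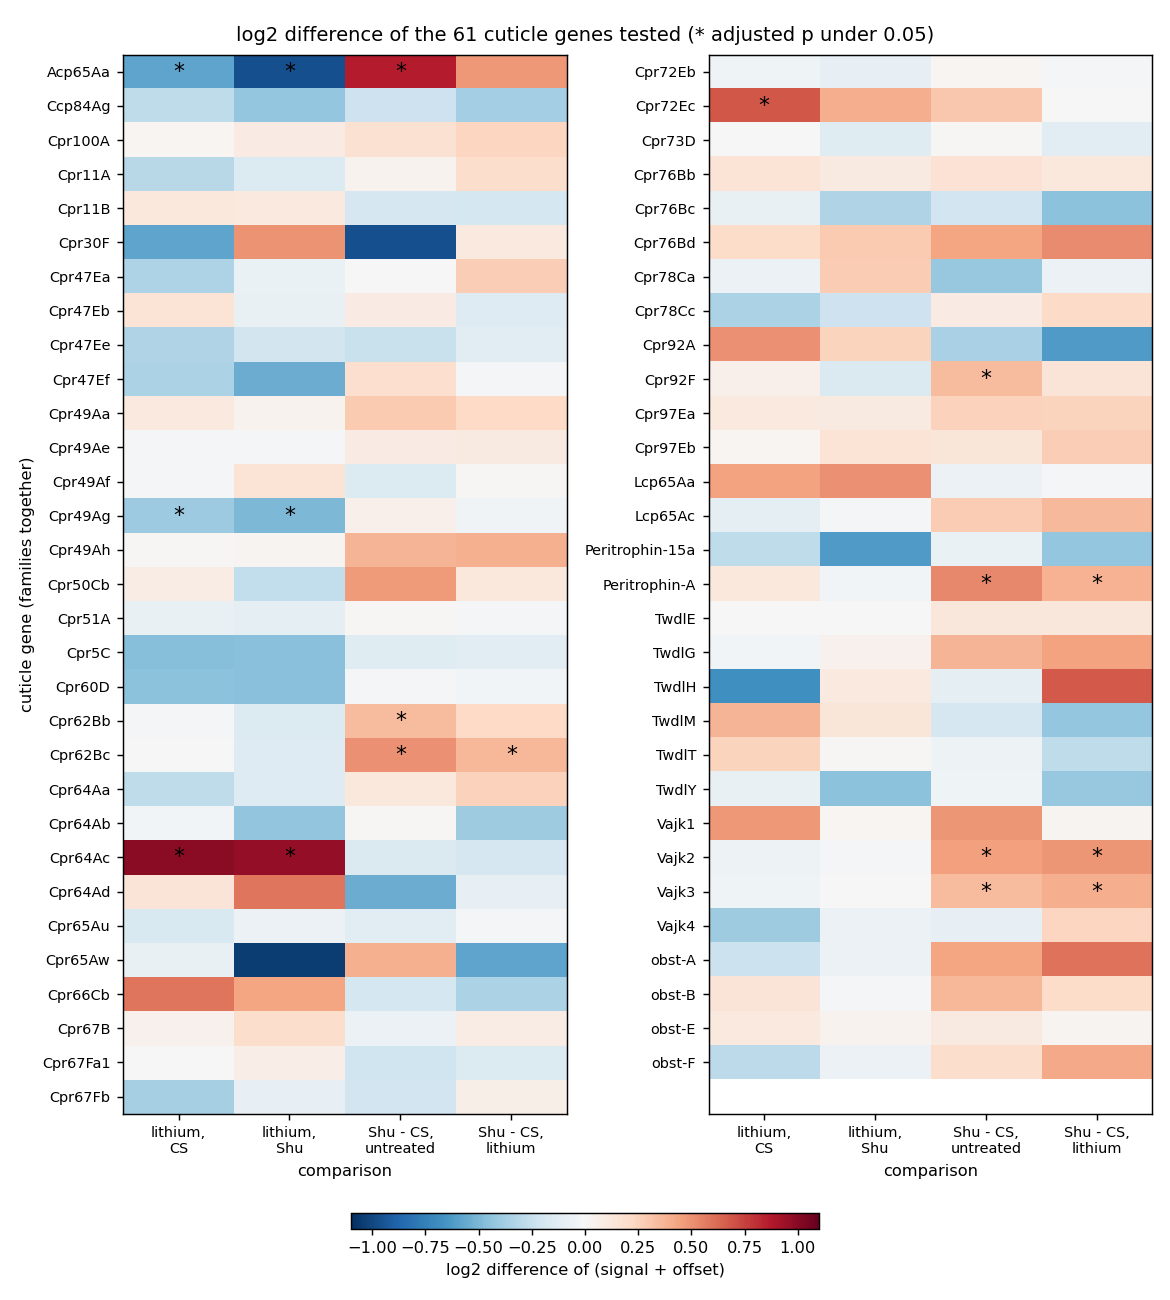
log2 differences of the 61 tested cuticle genes (rows) in the 4 comparisons (columns), from blue (lower) to red (higher), with an asterisk at each of the 18 calls. The calls sit in 10 genes. Cpr30F and Cpr65Aw, with strong colours and no asterisk, are dim genes with SEs of 0.41 and 0.29, while obst-A and Cpr76Bd, also without a call on lithium, have SEs of 0.14 and 0.12.

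The genotypes without treatment (Shu_0 against CS_0) asked which cuticle genes differed in the mutant stock. Here 7 of the 61 genes were called and all 7 were higher in the mutant. These were Acp65Aa, Cpr62Bc, Vajk2, Peritrophin-A, Vajk3, Cpr92F and Cpr62Bb. That is 11.5% of the genes tested, where 5.07% of all probe sets were called, and 2.11% were called higher. The median of the 61 was 0.05 against 0.01, and 37 lay above 0, beside 52.0% of all. That median was 0.04 to 0.14 with 1 array left out at a time (0.14 without Shu_0 replicate 2, 0.09 without CS_0 replicate 1 or Shu_0 replicate 3) and 0.18, with 22 of 29 genes above 0, with the filter at the 60th percentile. Without a filter it was 0.02, with 66 of 116 genes above 0. At an unadjusted p under 0.05, 16 of the 61 were higher and 3 lower, beside 9.94% and 10.1% of all probe sets. Without CS_0 replicate 3 and Shu_0 replicate 1, the calls of Acp65Aa, Vajk2 and Peritrophin-A were left, 3 genes, while the calls over all probe sets dropped from 571 to 31.

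The comparison on lithium (Shu_50 against CS_50) had no array in common with the untreated one, but the SEs were shared. In it 4 of the 61 were called, again all higher in the mutant, namely Vajk2, Vajk3, Cpr62Bc and Peritrophin-A. This is 6.56%, where 0.506% of all probe sets were called and 0.329% called higher. The median was 0.06 against -0.01, 35 lay above 0 (beside 47.6% of all; the median was 0.03 to 0.11 with 1 array left out at a time), and at an unadjusted p under 0.05 there were 13 higher and 3 lower beside 5.32% and 6.29%. Without a filter that median was 0.01, with 60 of 116 genes above 0, and with a doubled offset it was 0.03. With the filter at the 60th percentile it was 0.20, with 21 of 29 above 0. In 11 of the 61 genes (18.0%) every mutant array lay above every wild-type array both with and without lithium, which held for 3.05% of all probe sets. In 0 did every mutant array lie below in both, where 3.21% of all probe sets did so.

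**Figure D3:**
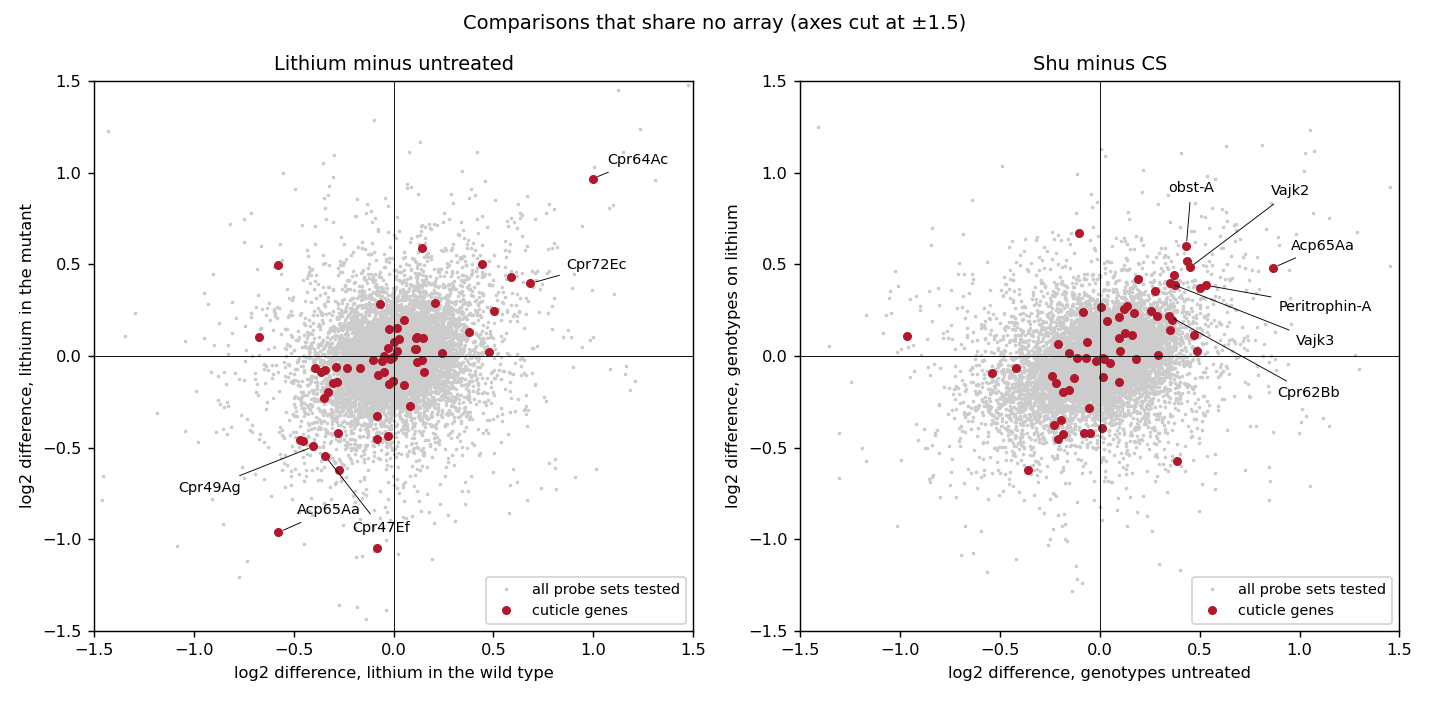
log2 difference of each tested cuticle gene (red) and of all probe sets tested (grey) for lithium in the wild type against lithium in the mutant (left) and for the genotypes untreated against the genotypes on lithium (right). Axes end at ±1.5, beyond which lie 22 (left) and 15 (right) probe sets and 0 of the cuticle genes; Cpr64Ac, Acp65Aa and Cpr49Ag lie away from 0 on both axes at the left, and Vajk2, Vajk3, Peritrophin-A and Acp65Aa do so at the right.

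Vajk2 (1631302_at, 2L:13932559-13934692) and Vajk3 (1635483_at, 2L:13944756-13947476) are neighbouring cuticle genes. The signals of Vajk2 were 2511, 2326 and 2463 in CS_0, 2422, 2264 and 2326 in CS_50, 3674, 3180 and 3147 in Shu_0 and 3316, 3446 and 3052 in Shu_50. The lowest mutant array thus stood above the highest wild-type array of either treatment. Vajk2 was higher in the mutant by 0.45 ± 0.07 untreated (adjusted p = 0.00208, or 36.6%) and by 0.48 ± 0.07 on lithium (adjusted p = 0.00141, or 39.7%). Both calls were kept under all 23 alternatives. A further probe set that names Vajk2 alone, 1638475_a_at, read 384, 468, 641 and 656 as means of CS_0, CS_50, Shu_0 and Shu_50. It was also higher in the mutant, by 0.73 ± 0.08 (adjusted p = 0.000119) and by 0.48 ± 0.08 (adjusted p = 0.00886).

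The signals of Vajk3 were 2256, 2109 and 2076 in CS_0, 2178, 1979 and 2075 in CS_50, 2934, 2674 and 2613 in Shu_0 and 2804, 2752 and 2653 in Shu_50. Its mutant arrays also lay wholly above its wild-type arrays. The differences were 0.35 ± 0.06 (adjusted p = 0.00453, or 27.5%) and 0.40 ± 0.06 (adjusted p = 0.00295, or 31.7%). Without the intensity trend both calls were lost (adjusted p = 0.0602 and 0.0709), and the untreated one also without CS_0 replicate 3 and Shu_0 replicate 1 (0.113). Lithium left neither gene called, with differences between -0.06 and 0.00 over both genes and genotypes and an SE of 0.06 to 0.07. The further Vajk2 probe set gave 0.28 ± 0.08 with lithium in the wild type (adjusted p = 0.106) and 0.03 ± 0.08 in the mutant.

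Peritrophin-A (1630085_s_at, X:20244647-20248203), a chitin-binding protein of the peritrophin type, read 159, 142 and 150 in CS_0, 180, 162 and 149 in CS_50, 222, 219 and 220 in Shu_0 and 207, 224 and 215 in Shu_50. All 6 mutant arrays were above all 6 wild-type arrays. It was higher in the mutant by 0.53 ± 0.08 untreated (adjusted p = 0.00224, or 44.5%), a call kept under all 23 alternatives. On lithium the difference was 0.39 ± 0.08 (adjusted p = 0.0386), and this call was lost under 12 of the 23. Leaving out CS_50 replicate 2 or 3, or any 1 of the 6 mutant arrays, gave adjusted p of 0.0521 to 0.186, and the 6 arrays of the comparison alone gave 0.0837. Without CS_0 replicate 3 and Shu_0 replicate 1 together it was 0.053, without a filter 0.0532 and without the intensity trend 0.101.

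None of the 4 tested obstructor genes, whose proteins bind chitin, was called. obst-A (1640107_at, X:20239855-20243209), which helps to organise chitin in the larval cuticle, read 124, 120 and 136 in CS_0 and 203, 178 and 144 in Shu_0, and 138, 87.8 and 100.5 in CS_50 and 174, 171 and 151 in Shu_50. Within each treatment the genotypes did not overlap. The differences were 0.43 ± 0.14 (adjusted p = 0.0868) and 0.60 ± 0.14 (adjusted p = 0.0673). obst-B (1641109_at, 2L:10032690-10038954) gave 0.36 ± 0.11 untreated (adjusted p = 0.0603) and 0.20 ± 0.11 on lithium. Its genotypes did not overlap within a treatment, by narrow margins. The highest CS_0 array read 198.2 and the lowest Shu_0 array 198.3, and the same arrays of CS_50 and Shu_50 read 195.8 and 197.3. obst-E gave 0.10 ± 0.12 and 0.03 ± 0.12, and the dim obst-F 0.19 ± 0.43 and 0.42 ± 0.43. All 4 genes lay above 0 in both comparisons, as did 52.0% and 47.6% of all probe sets in each.

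Cpr62Bc (1638896_at, 3L:1840281-1842084) and Cpr62Bb (1638472_at, 3L:1832636-1835164) are adjacent Cpr genes, and both were higher in the untreated mutant. Cpr62Bc read 930, 921 and 884 in CS_0, 929, 907 and 893 in CS_50, 1426, 1366 and 1114 in Shu_0 and 1129, 1183 and 1218 in Shu_50. The wild-type arrays of both treatments were close together and all mutant arrays stood above them. It was higher by 0.50 ± 0.07 untreated (adjusted p = 0.00203, or 41.8%) and by 0.37 ± 0.07 on lithium (adjusted p = 0.0338, or 29.1%). The first call was lost only without CS_0 replicate 3 and Shu_0 replicate 1 together (0.0578). The second was lost under 8 alternatives, which were leaving out any 1 of the 6 lithium arrays (0.0687 to 0.138), no filter (0.0554) and no intensity trend (0.202).

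Cpr62Bb read 546, 577 and 571 in CS_0, 517, 566 and 584 in CS_50, 797, 727 and 643 in Shu_0 and 657, 686 and 599 in Shu_50. Mutant and wild type did not overlap here either, though the lowest Shu_50 array came close to the highest of CS_50. The untreated difference was 0.35 ± 0.08 (adjusted p = 0.0176, or 27.2%) and that on lithium 0.22 ± 0.08 (adjusted p = 0.25). The untreated call was lost without CS_0 replicate 1 (0.0535), CS_0 replicate 3 (0.061) or Shu_0 replicate 1 (0.102), without the last 2 together (0.209) and without the intensity trend (0.0902).

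Cpr92F (1633344_at, 3R:20669571-20672821) read 211, 225 and 227 in CS_0 and 269, 304 and 277 in Shu_0. It was higher in the untreated mutant by 0.35 ± 0.07 (adjusted p = 0.0111, or 27.4%). This call was lost without the intensity trend (0.0582) and without CS_0 replicate 3 and Shu_0 replicate 1 (0.062). On lithium it read 230, 230 and 228 in CS_50 and 247, 246 and 267 in Shu_50, a difference of 0.14 ± 0.07 that was not called although the arrays did not overlap.

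Acp65Aa, described with lithium above, had the largest of the called differences between the untreated genotypes. It was higher in the mutant by 0.87 ± 0.11 (adjusted p = 0.000439, or 82.4%), a call kept under all 23 alternatives. On lithium the difference was 0.48 ± 0.11 and missed the threshold (adjusted p = 0.0592). It passed with array weights (0.0336), with the replicate number as a block (0.0298), without CS_0 replicate 3 (0.025) and without CS_0 replicate 3 and Shu_0 replicate 1 (0.0372).

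Of the 11 genes whose arrays did not overlap between genotypes within either treatment, 2 more had no call, Cpr76Bd and Cpr100A. Cpr76Bd (1637391_at, 3L:19532743-19538289) read 69.3, 65.1 and 59.9 in CS_0 and 91.2, 80.9 and 97.5 in Shu_0, and 61.4, 82.2 and 85.1 in CS_50 and 112, 115 and 106.5 in Shu_50. Its differences were 0.44 ± 0.12 (adjusted p = 0.0513) and 0.52 ± 0.12 (adjusted p = 0.0703). Cpr100A (1629919_at, 3R:30867521-30869184) gave 0.17 ± 0.06 (adjusted p = 0.115) and 0.24 ± 0.06 (adjusted p = 0.0892), from means of 2949 and 3318 untreated and of 2999 and 3534 on lithium.

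Several bright members had no call in any comparison, with SEs that allow small differences to be seen. Cpr65Au (1631017_at) gave -0.17 ± 0.07 with lithium in the wild type (adjusted p = 0.292) and values from -0.11 to -0.01 in the other comparisons. Cpr49Ae (1623558_at) lay between -0.02 and 0.10 in all 4, with an SE of 0.06. Cpr67B (1635998_at) lay between -0.07 and 0.20, with an SE of 0.08. Cpr11B (1641746_at) had lower means in the mutant, at -0.18 ± 0.07 untreated (adjusted p = 0.156) and -0.20 ± 0.07 on lithium (adjusted p = 0.263). Cpr97Eb (1639351_at) gave 0.14 ± 0.07 and 0.27 ± 0.07 between genotypes (adjusted p = 0.271 and 0.08).

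By family, the Tweedle genes showed no call in any comparison. Their 6 tested members ranged from -0.18 to 0.37 between the untreated genotypes and from -0.67 to 0.38 with lithium in the wild type. The 2 tested Lcp genes and the 1 tested Ccp84 gene were not called either. In the Cpr genes, which make up 41 of the 61, the medians were -0.02 and -0.08 with lithium and 0.02 and 0.00 between genotypes. The 4 Vajk genes had medians of 0.40 and 0.32 between genotypes. Among them Vajk4 gave -0.09 untreated and 0.24 ± 0.16 on lithium, neither called. A further probe set of Vajk4 gave -0.47 ± 0.22 and 0.06 ± 0.22, also without a call.

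Many cuticle genes lie in clusters, and the calls were compared with those of neighbours. With a gap of at most 20 kb taken to join genes, the members formed 20 groups of 2 or more. In the group of 4 genes at 64A (3L:4207838-4216414), Cpr64Ac rose with lithium while Cpr64Aa, Cpr64Ab and Cpr64Ad, whose lithium differences ran from -0.44 to 0.59, were not called. The group at 65A held 11 members over 31.2 kb (3L:6130386-6161589), 5 of them tested, and Acp65Aa was the 1 called, although Cpr65Aw gave -1.05 ± 0.29 with lithium in the mutant. At 49A, 5 of 8 members over 38.5 kb were tested, and Cpr49Ag alone was called, while Cpr49Af and Cpr49Ae beside it stayed within 0.15 of 0 with lithium.

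Other groups held genes that moved in the same direction. Of 3 Vajk genes within 26.8 kb (2L:13920707-13947476), Vajk2 and Vajk3 were called in both genotype comparisons. The third, Vajk1, is dim (mean signal 27.1) and gave 0.49 ± 0.22 untreated and 0.03 ± 0.22 on lithium, neither called. At 62B, Cpr62Bb and Cpr62Bc lie in 18.0 kb with the untested Cpr62Ba. On the X chromosome, obst-A and Peritrophin-A lie within 8.35 kb (X:20239855-20248203), and the arrays of both separated the genotypes.

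**Figure D4:**
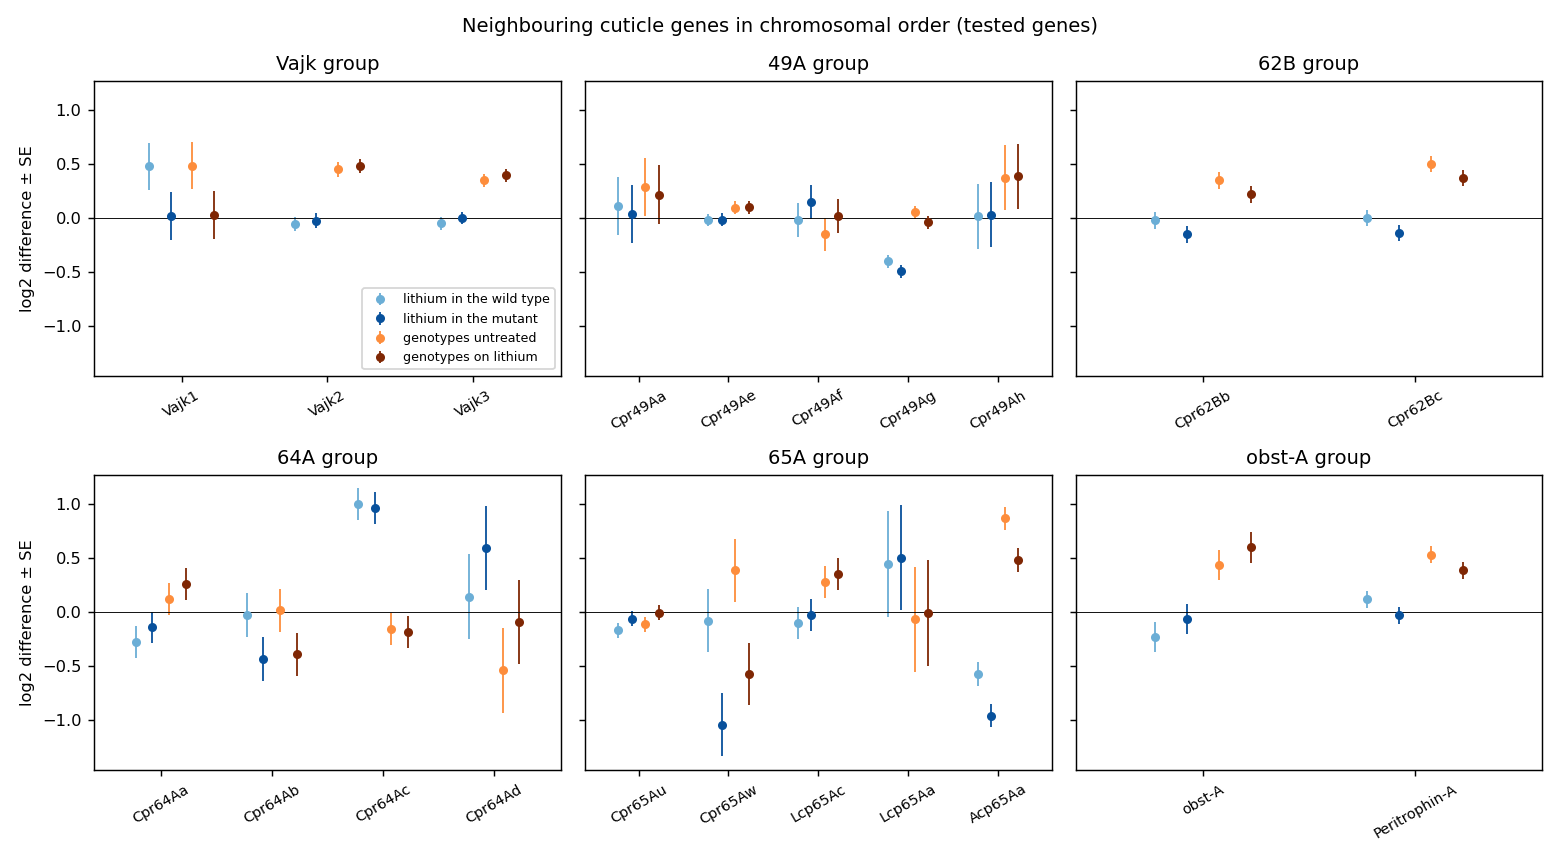
log2 difference ± SE of the tested cuticle genes in 6 groups of neighbours, in chromosomal order, for the 4 comparisons. Vajk2 and Vajk3, Cpr62Bb and Cpr62Bc, and obst-A and Peritrophin-A lie above 0 in both genotype comparisons, whereas Cpr49Ag, Cpr64Ac and Acp65Aa are the only genes of their groups called with lithium. In the mutant Cpr65Aw (-1.05 ± 0.29), of the group of Acp65Aa, and Cpr64Ad (0.59 ± 0.39), beside Cpr64Ac, had the same sign as those genes without a call.

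The enzymes and organisers that make and order chitin, a list of 15 measured genes of which 13 were tested, were read beside the members. With lithium 0 of the 13 were called in either genotype by limma, and 3 had an unadjusted p under 0.05 in each (2 higher, 1 lower), beside 13.1% and 11.9% of all probe sets. Between the untreated genotypes 3 were called, all higher in the mutant, beside 2.11% of all probe sets. Of the 13, 12 lay above 0, beside 52.0% of all, with a median of 0.25 against 0.01. They were kkv, the chitin synthase of the epidermis and tracheae (0.46 ± 0.11, adjusted p = 0.0255), and the chitin deacetylases serp (0.34 ± 0.06, adjusted p = 0.00453) and verm (0.41 ± 0.09, adjusted p = 0.0137). The signals of kkv were 173, 178 and 175 in CS_0 and 279, 214 and 242 in Shu_0.

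On lithium 12 of the 13 again lay above 0 (beside 47.6% of all), with a median of 0.17 against -0.01. Of all probe sets 0.329% were called higher there, and of the 13 serp alone was (0.39 ± 0.06, adjusted p = 0.00255). Its signals were 597, 571 and 581 in CS_50 and 746, 772 and 782 in Shu_50. There kkv gave 0.50 ± 0.11 (adjusted p = 0.054) and verm 0.32 ± 0.09 (adjusted p = 0.13). A list of chitinases and hexosaminidases held 14 tested genes, among them the chitinase-like proteins Idgf1 to Idgf6. Of the 14, limma called 0 in every comparison. At an unadjusted p under 0.05 there were at most 3 of 14, with lithium in the wild type, beside 13.1% of all probe sets.

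**Figure D5:**
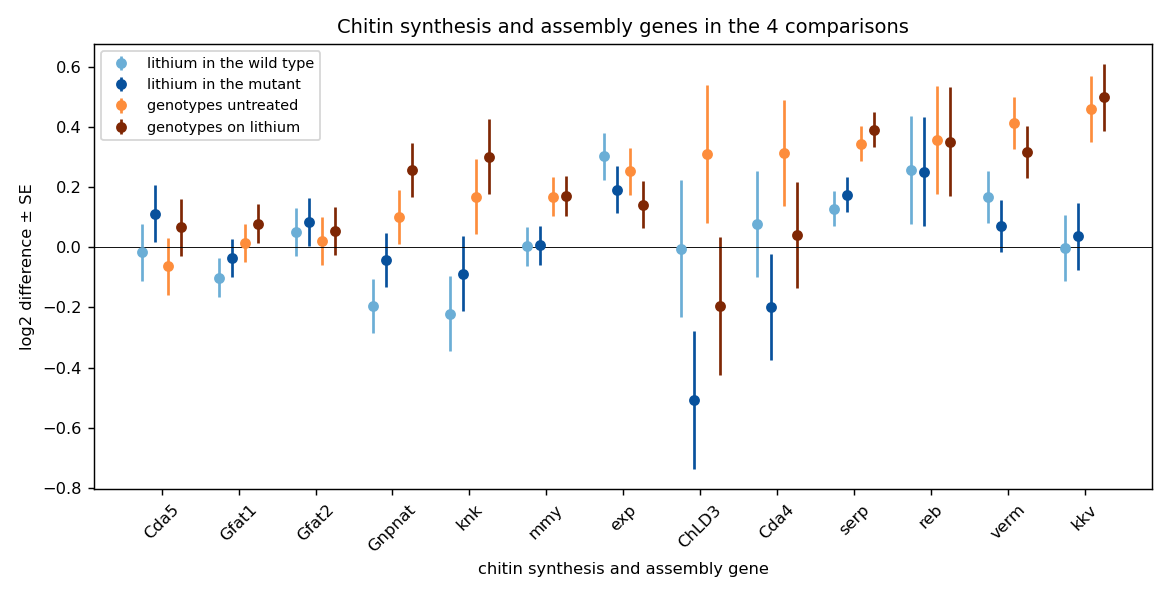
log2 difference ± SE of the 13 tested genes of chitin synthesis and assembly in the 4 comparisons. In both genotype comparisons 12 of the 13 lie above 0, with kkv, serp and verm called untreated and serp called on lithium, and in the lithium comparisons they scatter around 0.

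Among 19 tested genes of tanning and pigmentation, which harden and colour cuticle, the genotypes differed in both directions, with 2 genes higher and 2 lower beside 2.11% and 2.96% of all probe sets. In the untreated mutant yellow-d2, of the Yellow family, was higher (0.67 ± 0.13, adjusted p = 0.0079), as was speck, an arylalkylamine N-acetyltransferase (0.24 ± 0.07, adjusted p = 0.0476). Lower were ple, the tyrosine hydroxylase (-0.53 ± 0.14, adjusted p = 0.0465), and yellow-h (-0.38 ± 0.09, adjusted p = 0.0204). On lithium yellow-d2 alone of the 19 was called (0.71 ± 0.13, adjusted p = 0.014), beside 0.329% of all probe sets called higher.

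Of 15 tested genes of ecdysone signalling and moulting, 3 were lower in the untreated mutant, beside 2.96% of all probe sets. These were Eip93F, a transcription factor of metamorphosis (-0.59 ± 0.11, adjusted p = 0.00813), usp, the partner of the ecdysone receptor (-0.46 ± 0.13, adjusted p = 0.0452), and Cyp18a1, which inactivates ecdysone (-0.29 ± 0.08, adjusted p = 0.047). With lithium in the wild type Cyp18a1, 1 of the 15, fell by 0.35 ± 0.08 (adjusted p = 0.0356), beside 0.622% of all probe sets. On lithium 0 of the 15 differed by genotype in limma's test, and 2 were lower at an unadjusted p under 0.05, beside 6.29% of all probe sets. A list of zona pellucida domain proteins, which tie the epidermis to its cuticle, held 7 tested genes, of which 1, mwh, is not such a protein. Of the 7, limma called 0 in every comparison, with at most 1 of 7 at an unadjusted p under 0.05. Of 4 tested other cuticle and lens proteins, Gasp, a chitin-binding protein, was higher in the untreated mutant (0.22 ± 0.06, adjusted p = 0.0386), beside 2.11% of all probe sets.

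Markers of some cell types moved beside these results. Of 7 tracheal markers, all tested, 4 were higher in the untreated mutant, beside 2.11% of all probe sets. These were serp, verm, Gasp and uif (the last by 0.65 ± 0.11, adjusted p = 0.00453). The mean log2 value of the 7 lay at 7.70 to 7.83 over the arrays of CS_0, 7.95 to 7.97 in CS_50, 7.93 to 8.17 in Shu_0 and 8.06 to 8.25 in Shu_50. serp, verm, Gasp, tyn and pio stand in the cuticle lists as well. Of 13 fat body markers, 4 were higher in the untreated mutant (Lsp2, Fbp2, fit and Lsd-1), beside 2.11% of all probe sets. The mean log2 values of the 13 were 10.34 to 10.53 in CS_0, 10.38 to 10.46 in CS_50, 10.69 to 10.87 in Shu_0 and 10.61 to 10.70 in Shu_50. With lithium, apolpp and Tsf1 of that list fell in both genotypes, beside 0.622% (wild type) and 0.648% (mutant) of all probe sets.

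Of 5 tested epidermal markers 1, vvl, was lower in the untreated mutant (-0.69 ± 0.15, adjusted p = 0.0147), beside 2.96% of all probe sets. Another, mwh, was higher there at an unadjusted p under 0.05 in limma's test, without a call, beside 9.94% of all probe sets. The summed signal of all 8 measured overlapped between CS_0 (1052 to 1197) and Shu_0 (950 to 1069). Among 18 measured gut markers 12 were below the filter. The summed signal ran from 147 to 225 outside Shu_0 and reached 883 in 1 array of that group. Of the 6 tested, LManV was higher in the untreated mutant (1.30 ± 0.34, adjusted p = 0.0359), beside 2.11% of all probe sets. Ovary and chorion markers were dim, with 10 of 15 below the filter and summed signals from 81.9 to 486. Of the 5 tested, dhd fell with lithium in the mutant by 1.96 ± 0.42 (adjusted p = 0.0197), beside 0.648% of all probe sets. In muscle, with 12 markers tested, TpnC41C rose with lithium in both genotypes, Act87E rose in the mutant and Mlc2 fell in the wild type. Of all probe sets, 0.995% (wild type) and 1.21% (mutant) were called higher with lithium, and 0.622% lower in the wild type. Of the same 12, sls was lower in the untreated mutant, beside 2.96% of all probe sets. As a sign of RNA quality, the log2 ratio of 3′ to 5′ control signal of eIF-4a was 2.66 to 2.96 in CS_0 and 2.43 to 2.51 in CS_50, 2.46 to 2.65 in Shu_0 and 2.45 to 2.67 in Shu_50, so that CS_0 overlapped with neither CS_50 nor Shu_0. That of GAPDH was 0.997 to 1.08 in CS_0 and 0.875 to 0.987 in CS_50, also without overlap, 0.962 to 1.07 in Shu_0 and 0.77 to 1.04 in Shu_50. That of actin was 1.18 to 1.28 in CS_0, 1.05 to 1.24 in CS_50, 0.978 to 1.26 in Shu_0 and 1.1 to 1.26 in Shu_50. For actin CS_0 overlapped with every other group. The part of these markers and of RNA quality in the cuticle results was not tested.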

How the data were processed

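The authors deposited 1 linear intensity per probe set and array; neither the files nor the labels name the software that made it, and per the labels the RNA was total RNA labelled by Affymetrix's protocol. After trimming 2% at each end, all 12 columns had a mean of 150.005, so they were used as deposited. Of 18952 probe sets 183 were controls. The offset of 6.26 was the 25th percentile of the others. Group means were fitted in limma 3.58.1 (R 4.3.3; lmFit, eBayes with an intensity trend, 8 residual degrees of freedom, two-sided) over the 11261 probe sets at or above the 40th percentile. The number of arrays limits the precision. The array annotation supplied gene names, which were updated by Entrez number to genome release 6, whose coordinates are given.

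Members, gene lists and tests were chosen with earlier results of these data known. Named were members called in a comparison, the first 12 by mean signal, the 5 of lowest p in each of 5 comparisons, those whose arrays did not overlap in both lithium or both genotype comparisons, and called genes of the lists; other neighbours of called genes were named after their values were seen. Replicate numbers came from the titles; for CS_50 replicate 2 the description repeats sample 1. The 22 alternatives were each of the 12 arrays left out, no filter or one at the 60th percentile, no offset or a doubled one, quantile normalization, no trend of variance with intensity, a fit to the 6 arrays compared, array weights, a replicate block and the mean over a gene's probe sets; leaving out CS_0 replicate 3 and Shu_0 replicate 1 together was added after seeing the data. The fit was tested on simulated data. Figures were drawn with matplotlib 3.10.9. Sequences were not used here.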

Additional observations from a re-analysis of the deposited data

Results flagged for a closer look

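Cpr92F had lithium differences of opposite sign in the genotypes. All 3 lithium arrays lay above the untreated ones in the wild type (means 221 and 229) and below them in the mutant (283 and 253). The margins were narrow. The nearest untreated and lithium arrays read 226.5 and 228.3 in the wild type and 268.6 and 267.3 in the mutant. How many of all probe sets split this way was not counted. The test of that difference gave -0.21 ± 0.10, which limma did not call (adjusted p = 0.741), and neither lithium effect was called by itself.

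A probe set outside the 116 genes, 1625707_s_at, names Ccp84Aa and Ccp84Ab together and so stands for neither alone. Its signals were 415, 404 and 356 in CS_0, 437, 430 and 379 in CS_50, 902, 795 and 783 in Shu_0 and 725, 679 and 748 in Shu_50. It was higher in the mutant by 1.07 ± 0.08 untreated (adjusted p = 1.24e-06) and by 0.78 ± 0.08 on lithium (adjusted p = 8.01e-05). These differences were larger than any called for a member between the genotypes (0.87 untreated and 0.48 on lithium at most), while the 1 tested member of the same family, Ccp84Ag, was dim (mean signal 16.9) and gave -0.23 ± 0.27 and -0.37 ± 0.27.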

How the results depend on the processing

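Of the 18 calls, 9 were kept under each alternative run and 9 were lost under at least 1, and 0 of the 18 changed sign. Without the intensity trend the counts of called cuticle genes fell to 2 (lithium, wild type), 4 (genotypes untreated) and 1 (genotypes on lithium). For the genotypes on lithium the count was 2 without a filter and 8 with array weights, and for lithium in the mutant it was 5 with the filter at the 60th percentile. Without CS_0 replicate 3 and Shu_0 replicate 1, an alternative chosen after seeing the data, it was 3 for the genotypes untreated. Leaving out 1 array at a time gave 3 to 4 (lithium, wild type), 3 to 5 (lithium, mutant; 5 without Shu_50 replicate 3), 6 to 9 (genotypes untreated) and 2 to 5 (genotypes on lithium; 2 without CS_50 replicate 2 or 3 or any 1 Shu_50 array). With a replicate block the counts were 4, 3, 8, 6 and, for the interaction, 0. Most of these counts are not set beside the calls over all probe sets in the same setting. A change in them cannot be read as particular to cuticle genes. Deviations of same-numbered arrays correlated at -0.0649 to 0.0918. Arrays of unlike number were not compared in this way, so these values cannot decide whether the numbers pair the arrays. The causes were not tested. Over all probe sets the called numbers ran from 44 to 243 over the alternatives (lithium in the wild type, 182 as reported), from 91 to 238 (lithium in the mutant, 209), from 31 to 703 (genotypes untreated, 571; 154 without CS_0 replicate 3, 130 without Shu_0 replicate 1 and 31 without both), from 25 to 133 (genotypes on lithium, 57) and from 0 to 2 (interaction, 1). Signal limits the dim members, whose median coefficient of variation was 29.4%.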
